A study of Mus musculus with 173 samples.

Results

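Brainstem was compared with a piece of tissue holding hypothalamus and thalamus, taken from the same wild-type mice. The comparison used the libraries whose labels give the genotype as wild type and the tissue as brainstem (8 libraries) or hypothalamus/thalamus (8 libraries), which is 16 of the 173 libraries of a survey of 11 tissues in a Huntington's disease mouse study. The animal code in the library names places both tissues in the same 8 mice, so each difference was taken within a mouse. The mice were of the C57BL/6 strain, 6 months old, 4 females (F3, F5, F7 and F9, named by sex and the last digit of the code) and 4 males (M1, M3, M5 and M7), and the labels say that they were housed with Het (Q20) mice. The codes of all 4 females share a prefix and those of all 4 males share another. The codes do not say what the prefix stands for, and sex cannot be told apart from it. The same contrast in 8 mice heterozygous for the Q175 knock-in allele (4 females and 4 males, same strain and age) served as libraries that the wild-type comparison did not use. The labels name hypothalamus and thalamus as a single tissue and do not say how either piece was cut. Polyadenylated RNA of flash-frozen tissue was sequenced to a depth of 29.8 to 39.7 M (mega) estimated counts in each library.

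The brainstem carries the motor nuclei of the cranial nerves, the respiratory and autonomic networks, the serotonin and noradrenaline neurons and many glycinergic inhibitory neurons, and it is crossed by the long myelinated tracts between brain and spinal cord. The hypothalamus controls hormones, feeding, water balance and sleep through neurons that release peptides. The thalamus relays sensory and motor signals to the cortex through glutamatergic neurons, and the habenula lies on its upper surface. Position along the neural tube is set in the embryo by transcription factors, with the Hox genes marking the hindbrain and the parts behind it, and many of these genes stay on in adult neurons.

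Of 16709 genes that passed the filter on low counts, 4761 were called higher in brainstem (28.5% of those tested) and 4787 higher in hypothalamus/thalamus (28.6%), at an adjusted p under 0.05 in edgeR's paired quasi-likelihood test. With a difference of at least 2-fold as a further condition, 681 genes (4.08%) were called for brainstem and 951 (5.69%) for hypothalamus/thalamus. The median log2 difference over all genes tested, given throughout as brainstem over hypothalamus/thalamus, was -0.004. For 4046 genes (24.2%) the values of both groups of 8 libraries did not overlap. The counts of list members given here are to be read against these shares. In bulk tissue, fewer cells of a type and less RNA per cell cannot be told apart.

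The 4 genes used to check the tissue labels were all on the labelled side. Slc6a5, the neuronal glycine transporter, ranged from 403 to 688 CPM (counts scaled to a common library total) in brainstem with a median of 573, and from 0.730 to 1.38 CPM in hypothalamus/thalamus with a median of 0.918. The log2 difference was 9.12 ± 0.15 (SE, 8 mice, adjusted p = 4.76e-12, edgeR). The test itself gives no SE. The SE of a log2 difference was taken throughout as its absolute value over the square root of the test's F statistic. Tph2, the enzyme that makes serotonin in neurons, ranged from 9.32 to 33.3 CPM in brainstem (median 24.9) against 0.368 to 0.768 (median 0.438), a log2 difference of 5.43 ± 0.27 (adjusted p = 5.53e-08). Both were higher in brainstem in all 8 mice, and the groups did not overlap. Avp, which encodes vasopressin, ranged from 0 to 0.0591 CPM in brainstem (median 0.0302) and from 7.01 to 45.1 CPM in hypothalamus/thalamus (median 23.5), a log2 difference of -9.57 ± 0.18 (adjusted p = 1.37e-11). Tcf7l2, a transcription factor of thalamic neurons, ranged from 3.43 to 4.72 CPM in brainstem (median 4.25) and from 126 to 185 CPM in hypothalamus/thalamus (median 149.5), a log2 difference of -5.19 ± 0.07 (adjusted p = 1.91e-12). Both were higher in hypothalamus/thalamus in all 8 mice, again without overlap.

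**Figure D1:**
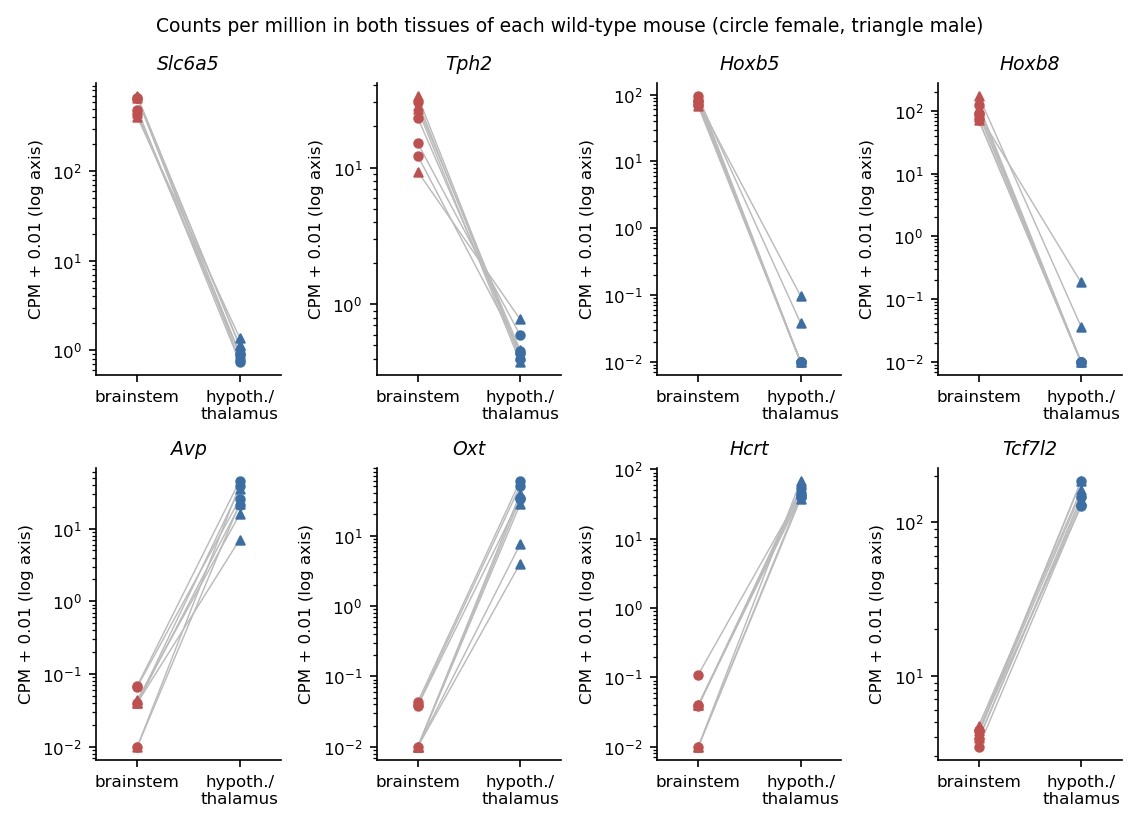
CPM, plus 0.01 so that 0 can be drawn on the log axis, of 8 genes in brainstem (red) and hypothalamus/thalamus (blue), with a grey line joining the libraries of each wild-type mouse, circles for females and triangles for males. No gene's groups overlap: Slc6a5 lies between 403 and 688 CPM in brainstem, and Tcf7l2 between 126 and 185 CPM in hypothalamus/thalamus.

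Among the brainstem genes the Hox genes stood at the top. Of 27 in the list, 23 passed the filter and all 23 were called higher in brainstem by at least 2-fold, with a median log2 difference of 10.77 and no overlap between the groups for any of them. They passed the filter through their brainstem counts alone, so this count is a description and not a test of the family. Fitted differences of genes at or near 0 in one tissue depend on the model's prior count. Their SE can be much smaller than the shift on leaving out 1 mouse, as for Hoxb5 and Hoxb8 below. The 15 brainstem genes with the largest folds all came from the Hox clusters, 1 of them the antisense gene Hoxb3os, whose reads cannot be told apart from those of overlapping genes because the labels do not state the strand. Hoxb5 ranged from 66.7 to 94.3 CPM in brainstem (median 81.1) and reached 0.0873 CPM at most in hypothalamus/thalamus (log2 difference 12.12 ± 0.20, adjusted p = 4.76e-12, and 13.34 without M7). Hoxb8 ranged from 70.4 to 170 CPM in brainstem (median 89.95), with the highest value in M3 (log2 difference 11.78 ± 0.25, adjusted p = 3.41e-11, and 13.70 without M7). In hypothalamus/thalamus, 6 of 8 libraries held no Hoxb8 count, M3 held 0.0265 CPM and M7 0.175 CPM. Hoxa3, Hoxc6 and Hoxb9 had no count in any hypothalamus/thalamus library. Against a floor of 3 counts over the group, Hoxa3 was at least 1390-fold, Hoxc6 at least 993-fold and Hoxb9 at least 695-fold higher in brainstem. Hoxb9, the member of the most posterior group among those named, varied most between brainstems, from 2.22 CPM in F5 to 12.7 CPM in M1. Whether the brainstem pieces held spinal cord tissue was not tested. The summed CPM of the list was 442 to 664 in brainstem and 0.396 to 0.989 in hypothalamus/thalamus.

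The list of 19 tested hindbrain and midbrain transcription factors held 16 members called higher in brainstem, 13 of them by at least 2-fold, and 1 called higher in hypothalamus/thalamus, with a median log2 difference of 1.85. Lbx1, which specifies dorsal interneurons of hindbrain and spinal cord, averaged 10.8 ± 1.39 CPM (SD, n = 8) in brainstem and 0.0186 ± 0.0311 in hypothalamus/thalamus (log2 difference 8.96 ± 0.27, adjusted p = 7.63e-10, and 9.79 without M7). Pax2, a factor of inhibitory interneurons, averaged 21.1 ± 2.84 against 0.0943 ± 0.0878 CPM (log2 difference 7.72 ± 0.25, adjusted p = 1.15e-09). En1, a midbrain and anterior hindbrain gene, did not pass the test (1.03 ± 0.204 CPM in brainstem, 1.32 ± 0.978 in hypothalamus/thalamus, adjusted p = 0.813).

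Genes on the lists of transmitter systems were called in both directions. Of 11 serotonergic genes tested, 7 were called higher in brainstem and 4 in hypothalamus/thalamus. The serotonin transporter gene Slc6a4 ranged from 8.24 to 23.8 CPM in brainstem and reached 0.195 CPM at most in hypothalamus/thalamus (log2 difference 7.04 ± 0.18, adjusted p = 1.69e-10). Maob, a monoamine-degrading enzyme that glia also make, went the other way (31.5 ± 2.51 against 72.9 ± 9.83 CPM, log2 difference -1.21 ± 0.05, adjusted p = 1.12e-08). The summed CPM of the serotonergic list was 173 ± 29 in brainstem and 190.2 ± 18.4 in hypothalamus/thalamus. Of 8 noradrenergic genes, 4 were called on each side, and their summed CPM was 125 ± 19 and 191 ± 26.8. Dbh, which turns dopamine into noradrenaline, averaged 6.79 ± 1.99 CPM in brainstem and 0.0906 ± 0.0477 in hypothalamus/thalamus (log2 difference 6.11 ± 0.25, adjusted p = 9.1e-09). Th, the first enzyme of all catecholamine synthesis, was instead higher in hypothalamus/thalamus (9.38 ± 1.48 against 33 ± 10.4 CPM, log2 difference -1.77 ± 0.16, adjusted p = 4.99e-06).

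Dopamine neuron genes were mostly on the hypothalamus/thalamus side: of 11 tested, 7 were called higher there, 5 of them by at least 2-fold, and 3 higher in brainstem. Slc6a3, the dopamine transporter, ranged from 2.32 CPM in F7 to 126 CPM in M3 (median 35.7) in hypothalamus/thalamus and from 0.151 to 0.541 CPM in brainstem, a log2 difference of -7.21 ± 0.25 (adjusted p = 2.9e-09). The groups did not overlap, yet the hypothalamus/thalamus libraries spanned more than an order of magnitude. Foxa1 and Lmx1a, transcription factors of midbrain dopamine neurons that are also used in parts of the posterior hypothalamus, averaged 0.0499 ± 0.0379 and 0.145 ± 0.0989 CPM in brainstem against 3.06 ± 0.833 and 3.45 ± 0.794 CPM. Whether the hypothalamus/thalamus pieces held midbrain tissue was not tested.

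Glycine signalling was split between receptor subunits. Of 9 tested genes, 6 were called higher in brainstem and 2 in hypothalamus/thalamus. The glial glycine transporter Slc6a9 was higher in brainstem (245 ± 13 against 136.5 ± 10.7 CPM, log2 difference 0.85 ± 0.05, adjusted p = 1.31e-07), and so was the anchoring subunit gene Glrb (378 ± 23 against 231 ± 21.5 CPM, log2 difference 0.72 ± 0.06, adjusted p = 1.32e-06). The receptor subunit gene Glra2 was lower in brainstem, at 13.4 to 15.7 CPM against 32.8 to 45.8 CPM (log2 difference -1.41 ± 0.05, adjusted p = 3.58e-09). Glra1, the adult subunit, was singled out after its values were seen because its brainstem libraries disagreed: F3, F7, M5 and M7 had 121, 148, 147 and 118.5 CPM, while F9, M1, M3 and F5 had 58.3, 30.9, 30.2 and 16 CPM. In hypothalamus/thalamus the values lay between 10.75 and 16.1 CPM apart from M1 at 3.36, so that F5 overlapped with them (log2 difference 2.58 ± 0.37, adjusted p = 0.000154). The slope of each library's expression on gene length (log2 CPM relative to the mean library, per doubling of length) was -0.241 in brainstem F5 and -0.219 in hypothalamus/thalamus M1, the lowest of each tissue. In the other 14 libraries it lay between -0.0409 and 0.0916. The 4 brainstem libraries with low Glra1 had the 4 lowest slopes of that tissue, and the part of this slope in the Glra1 values was not tested. With the length trend removed, Glra1 was still called.

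Motor and cholinergic genes were higher in brainstem for 10 of 11 tested members, 9 of them by at least 2-fold, with a median log2 difference of 2.03. Prph, an intermediate filament of motor and sensory neurons, averaged 34.2 ± 9.18 against 5.33 ± 1.42 CPM (log2 difference 2.67 ± 0.11, adjusted p = 8.99e-09). Mnx1, a motor neuron transcription factor, averaged 0.967 ± 0.362 CPM in brainstem, with a single count over all hypothalamus/thalamus libraries. Calca, the gene of calcitonin and CGRP, averaged 14.4 ± 4.46 against 3.46 ± 0.790 CPM. Isl1 was the exception and was higher in hypothalamus/thalamus (1.69 ± 0.667 against 13.95 ± 2.20 CPM, log2 difference -3.08 ± 0.17, adjusted p = 8.28e-08). Isl1 is a motor neuron factor that hypothalamic neurons also use.

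Genes of large, fast axons were mostly higher in brainstem. Of 15 neurofilament and large axon genes, 13 were called higher in brainstem, 11 by at least 2-fold, with a median log2 difference of 1.92. Their summed CPM was 7228 to 8537 in brainstem and 2210 to 3423 in hypothalamus/thalamus. Nefm, a neurofilament subunit, ranged from 1173 to 1466 CPM (median 1316) against 142 to 348 CPM (median 238), a log2 difference of 2.47 ± 0.13 (adjusted p = 5.8e-08). Vamp1, a synaptic vesicle fusion protein, ranged from 1243 to 1408 CPM against 215 to 412 CPM (log2 difference 2.10 ± 0.10, adjusted p = 2.78e-08). Gap43, a growth cone protein, was the member called the other way (157 ± 14.3 against 361 ± 41.5 CPM, log2 difference -1.20 ± 0.06, adjusted p = 2.41e-08). Kcna2, an axonal potassium channel, did not pass the test, with 84.5 ± 53.6 against 62.95 ± 23.7 CPM (adjusted p = 0.555). Its lowest values, 14.5 CPM in brainstem and 13.8 CPM in hypothalamus/thalamus, came from F5 and M1, the libraries with the lowest length slopes.

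All 24 tested oligodendrocyte and myelin genes were called higher in brainstem, 15 by at least 2-fold, with a median log2 difference of 1.10. Mbp, myelin basic protein, ranged from 7845 to 10780 CPM in brainstem (median 8533) and from 2315 to 4642 CPM in hypothalamus/thalamus (median 3539), without overlap (log2 difference 1.39 ± 0.11, adjusted p = 8.64e-07). Klk6, a protease of mature oligodendrocytes, had the largest difference of the named myelin genes (65.6 ± 12.2 against 10.1 ± 3.25 CPM, log2 difference 2.74 ± 0.17, adjusted p = 2.5e-07). Oligodendrocyte precursor genes did not follow. Of 13 tested, 3 were called higher in brainstem and 8 in hypothalamus/thalamus, 1 and 2 of them by at least 2-fold. Pdgfra, the precursor growth factor receptor, was higher in hypothalamus/thalamus (53.0 ± 3.10 against 77.4 ± 7.34 CPM, log2 difference -0.54 ± 0.04, adjusted p = 1.15e-06). C1ql1 went the other way by more, with 19.3 ± 5.47 FPKM (scaled by gene length) in brainstem and 5.36 ± 1.035 in hypothalamus/thalamus.

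**Figure D2:**
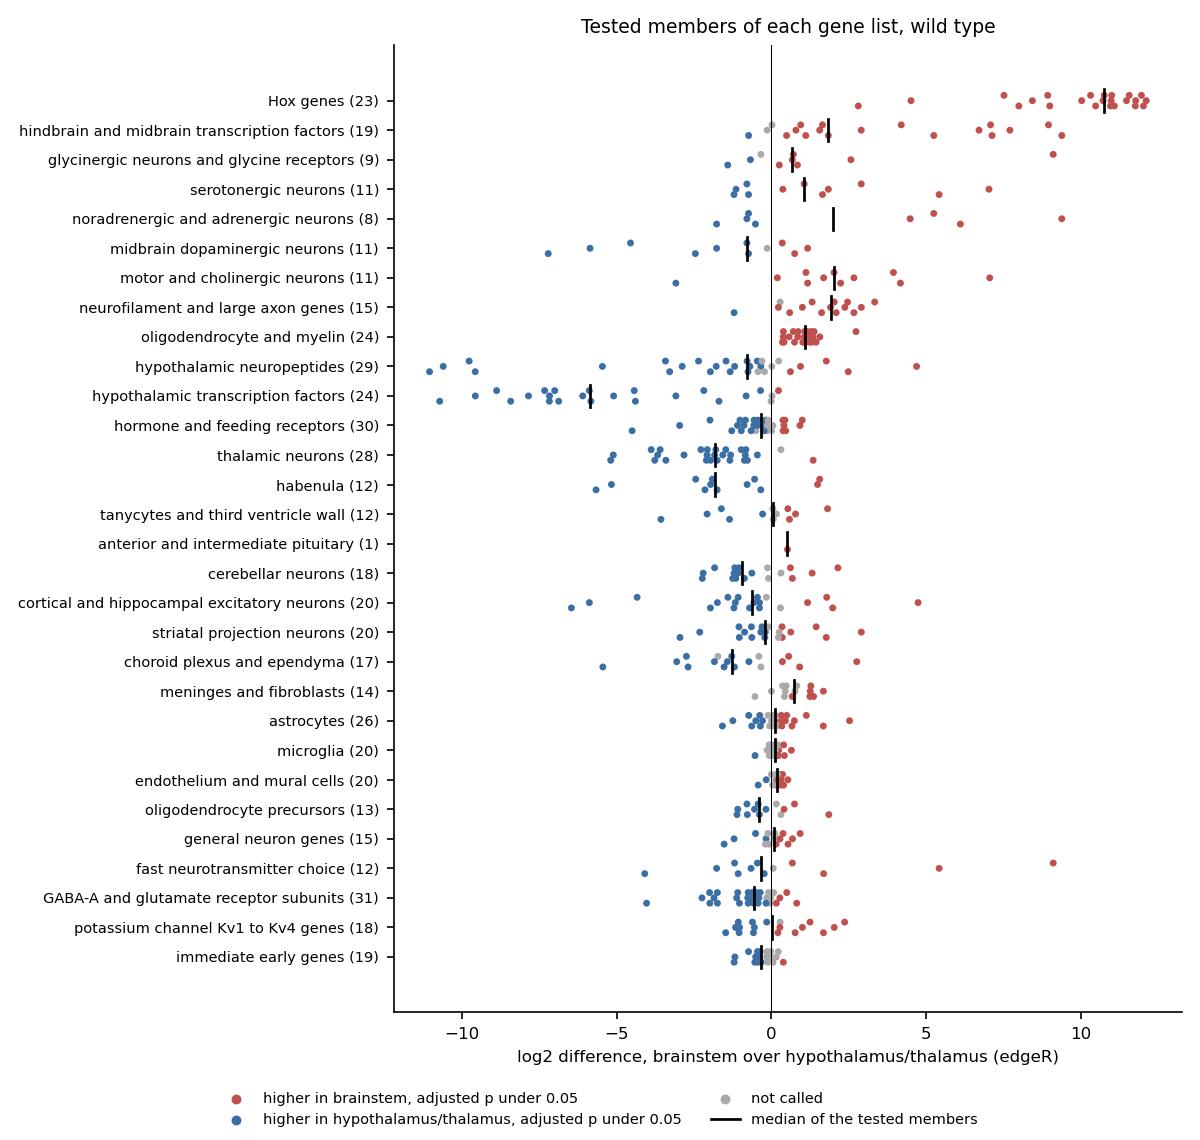
Log2 difference between brainstem and hypothalamus/thalamus (x axis, positive is higher in brainstem) of each tested member of 30 gene lists in wild-type mice, with the number of tested members after each list's name. Red and blue points passed an adjusted p under 0.05, grey points did not, and the black tick is the median. The Hox genes lie farthest to the right (median 10.77), the hypothalamic transcription factors farthest to the left (median -5.86), and microglial genes lie near 0 (median 0.11).

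On the hypothalamic side, the transcription factors separated the tissues most. Of 24 tested, 21 were called higher in hypothalamus/thalamus, 19 by at least 2-fold, and 1 higher in brainstem, with a median log2 difference of -5.86. Six3, a factor of the anterior forebrain, ranged from 24.8 to 30.2 CPM in hypothalamus/thalamus (median 26.4) and from 0 to 0.414 CPM in brainstem (log2 difference -7.85 ± 0.30, adjusted p = 7.19e-09, and -8.48 without F9). Sim1, needed for the oxytocin and vasopressin neurons of the paraventricular nucleus, averaged 10.7 ± 2.52 against 0.0681 ± 0.0657 CPM in brainstem (log2 difference -7.17 ± 0.31, adjusted p = 1.21e-08). Nr2e1, a factor of neural stem cells and forebrain, averaged 7.72 ± 0.915 against 0.0153 ± 0.0228 CPM (log2 difference -8.67 ± 0.27, adjusted p = 7.95e-10). Nkx2-1, which specifies the ventral hypothalamus, ranged from 2.57 to 10.6 CPM (median 9.42) and was at 0 in 6 of 8 brainstems, with 0.341 CPM in F5. Dlx1, a factor of forebrain inhibitory neurons, averaged 29.3 ± 6.03 against 0.197 ± 0.0555 CPM. Fezf1, a factor of ventromedial hypothalamus, had no count in any brainstem library and was at least 545-fold lower there, against the floor of 3 counts over the group.

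Among 29 tested neuropeptide genes, 19 were called higher in hypothalamus/thalamus, 14 by at least 2-fold, and 5 higher in brainstem, 3 by at least 2-fold. The median log2 difference was -0.78. The promoters of the 4 peptide genes from this list with the largest differences are shown, with those of Slc6a5 and Tph2, the brainstem genes used to check the labels. Each is 100 bases just before a transcription start annotated by RefSeq on GRCm38.p6, written on the gene's own strand. Slc6a5 has 2 annotated starts, and the first listed is shown. The capitals mark TATAAA, the core of a TATA box, where the letters were found.

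Oxt (oxytocin, chr2:130576069-130576168, plus strand): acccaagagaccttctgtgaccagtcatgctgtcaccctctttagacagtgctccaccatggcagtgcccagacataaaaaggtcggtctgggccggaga
Avp (vasopressin, chr2:130582589-130582688, minus strand): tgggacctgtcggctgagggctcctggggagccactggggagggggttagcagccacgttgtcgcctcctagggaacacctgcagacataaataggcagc
Hcrt (hypocretin, chr11:100762932-100763031, minus strand): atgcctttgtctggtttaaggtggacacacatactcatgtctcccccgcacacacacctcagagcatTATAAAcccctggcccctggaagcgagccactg
Pmch (melanin-concentrating hormone, chr10:88090972-88091071, plus strand): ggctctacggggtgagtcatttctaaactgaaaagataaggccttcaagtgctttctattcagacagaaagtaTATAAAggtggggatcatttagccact
Slc6a5 (glycine transport, chr7:49910199-49910298, plus strand): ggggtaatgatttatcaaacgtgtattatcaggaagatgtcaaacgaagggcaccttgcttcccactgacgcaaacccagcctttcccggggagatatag
Tph2 (serotonin synthesis, chr10:115185023-115185122, minus strand): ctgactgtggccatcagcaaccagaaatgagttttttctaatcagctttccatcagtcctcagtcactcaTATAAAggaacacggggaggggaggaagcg

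In Hcrt, Pmch and Tph2 the TATAAA began 33, 27 and 30 bases before the start. In Oxt and Avp, which are neighbours on opposite strands of chromosome 2, these letters were not in the 100 bases, nor were they in those of Slc6a5. The Oxt and Avp sequences each hold cataaa, which differs from TATAAA in its opening letter, and only exact TATAAA was marked. The 250 bases before any annotated start of a gene were also searched. TATAAA on the gene's strand was found in 7 of 28 neuropeptide genes with a promoter sequence (25%), in 0 of 15 Hox genes and in 2415 of 27025 genes (8.94%). On either strand the counts were 8 neuropeptide genes (28.6%), 2 Hox genes (13.3%) and 3872 of all genes (14.3%). These counts describe letters in a window and were not tested.

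Oxt ranged from 0 to 0.0333 CPM in brainstem and from 4.0 to 59.6 CPM in hypothalamus/thalamus (median 33.6), a log2 difference of -11.05 ± 0.16 (adjusted p = 1.91e-12). Hcrt, the wake-promoting peptide of the lateral hypothalamus, ranged from 0 to 0.09996 CPM against 37.7 to 68.0 CPM (median 44.6), a log2 difference of -10.61 ± 0.18 (adjusted p = 6.44e-12). Pmch, from a neighbouring set of lateral hypothalamic neurons, ranged from 0.148 to 0.967 CPM against 341.5 to 589 CPM (median 397), a log2 difference of -9.77 ± 0.18 (adjusted p = 1.22e-11). None of these 3 overlapped between the tissues. Some peptides went the other way. Nmu, neuromedin U, averaged 4.18 ± 1.33 CPM in brainstem and 0.155 ± 0.0780 in hypothalamus/thalamus (log2 difference 4.70 ± 0.31, adjusted p = 2.66e-07). Penk, the enkephalin precursor, ranged from 147 to 228 CPM against 40.5 to 67.5 CPM (log2 difference 1.78 ± 0.13, adjusted p = 5.14e-07). Crh, the peptide that starts the stress hormone response from the hypothalamus, averaged 13.2 ± 3.24 CPM in brainstem and 2.33 ± 0.550 CPM in hypothalamus/thalamus (log2 difference 2.49 ± 0.19, adjusted p = 7.28e-07). It was higher in brainstem in all 8 mice and was singled out after its values were seen. Sst, somatostatin, did not pass the test (61.3 ± 10.8 against 61.4 ± 15.4 CPM, adjusted p = 0.92).

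Genes that receive hormonal and feeding signals differed less. Of 30 tested, 17 were called higher in hypothalamus/thalamus and 7 in brainstem, but 6 and 1 of them by at least 2-fold, with a median log2 difference of -0.33. Mc3r, a melanocortin receptor, averaged 0.193 ± 0.0727 against 4.42 ± 1.35 CPM (log2 difference -4.50 ± 0.17, adjusted p = 4.98e-09), and Calcr, the calcitonin receptor, averaged 2.03 ± 0.229 against 16.8 ± 6.66 CPM (log2 difference -2.96 ± 0.19, adjusted p = 2.83e-07). Crhr1, a receptor for the Crh peptide, was higher in brainstem like the peptide gene itself (18.5 ± 1.3 against 9.29 ± 1.11 CPM, log2 difference 1.0 ± 0.07, adjusted p = 4.74e-07). Hdc, the enzyme that makes histamine in the tuberomammillary neurons of the posterior hypothalamus, ranged from 8.76 CPM in M3 to 27.9 CPM in M1 in hypothalamus/thalamus and from 0.984 to 1.60 CPM in brainstem (log2 difference -4.09 ± 0.17, adjusted p = 9.1e-09).

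Thalamic genes were the largest list with nearly 1 direction: 26 of 28 tested were called higher in hypothalamus/thalamus, 20 by at least 2-fold, and 1 in brainstem, with a median log2 difference of -1.81. Tnnt1, a troponin subunit also made in thalamic neurons, averaged 0.575 ± 0.170 against 20.8 ± 7.69 CPM (log2 difference -5.11 ± 0.20, adjusted p = 5.03e-09). Lhx9 and Gbx2, transcription factors of developing thalamus, averaged 2.10 ± 0.308 and 4.41 ± 0.464 CPM in brainstem against 31.4 ± 5.61 and 19 ± 3.16 CPM. Prkcd, a protein kinase C of sensory relay neurons, was singled out after its values were seen, for its spread: it ranged from 89.4 CPM in F7 to 427 CPM in M3 in hypothalamus/thalamus and from 17.5 to 23.1 CPM in brainstem (log2 difference -3.59 ± 0.23, adjusted p = 3.44e-07). The habenula list held 10 of 12 members called higher in hypothalamus/thalamus, 7 by at least 2-fold, and 2 in brainstem. Gpr151, an orphan receptor of habenular neurons, lay between 19.9 and 26.3 CPM in 7 hypothalamus/thalamus libraries and at 1.75 CPM in M7, against 0.237 to 0.597 CPM in brainstem (log2 difference -5.67 ± 0.22, adjusted p = 5.2e-09). Chrnb3, a nicotinic receptor subunit found in habenula and dopamine neurons, averaged 0.302 ± 0.114 CPM in brainstem and 11.3 ± 4.23 CPM in hypothalamus/thalamus (log2 difference -5.17 ± 0.20, adjusted p = 6.2e-09). Abhd12b, a predicted lipid hydrolase, was among the genes with the largest difference without being on any list (0.0390 ± 0.0363 against 28.8 ± 11.5 CPM, log2 difference -9.42 ± 0.24, adjusted p = 1.77e-10).

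Genes of the ventricle wall were mixed. Of 12 tested genes of tanycytes, the cells that line the third ventricle, 4 were called higher in brainstem and 5 in hypothalamus/thalamus. Among the latter was Gpr50, a melatonin receptor relative (0.501 ± 0.2225 against 6.51 ± 3.58 CPM, log2 difference -3.57 ± 0.36, adjusted p = 8.76e-06). Choroid plexus and ependymal genes were called for 10 of 17 in hypothalamus/thalamus, 9 by at least 2-fold, and 4 in brainstem. Otx2, a transcription factor of forebrain, midbrain and choroid plexus, ranged from 4.42 to 8.62 CPM in hypothalamus/thalamus and from 0.0303 to 0.9996 CPM in brainstem (log2 difference -5.45 ± 0.46, adjusted p = 2.68e-06, and -6.70 without F7).

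The hypothalamus/thalamus pieces differed among mice. The summed CPM of thalamic genes was highest in M3 (4545) and lowest in F7 (2842), and that of hypothalamic transcription factors was lowest in M3 (129) and highest in F9 (224). Pomc and Nr5a1, genes of the arcuate and ventromedial nuclei, were singled out after their values were seen. Pomc was at 0.582, 0.859 and 1.43 CPM in M3, M5 and F3 and between 6.92 and 19.8 CPM in the other 5, while brainstem values lay between 0.601 and 1.02 CPM. The M3 and M5 pieces thus held no more Pomc than their brainstems (all 8 mice, log2 difference -2.88 ± 0.57, adjusted p = 0.0014). Nr5a1, which did not pass the filter, was at 0.212 CPM in M3 and 0.583 CPM in M5 and between 3.58 and 6.98 CPM in the others. Oxt was also lowest in M3 (4.0 CPM) and M5 (7.52 CPM), against 27.9 to 59.6 CPM. Hcrt and Pmch were not low in these mice (49.1 and 37.7 CPM of Hcrt, 414 and 341.5 CPM of Pmch in M3 and M5). Summed neuropeptide and summed thalamic CPM gave Pearson's r of -0.416 over the 8 libraries (exact permutation p = 0.314, Spearman's rho -0.5, exact permutation p = 0.216, 1 relation computed). Without M1 and M5, the libraries farthest from the median neuropeptide level, r was -0.733. It was -0.135 on summed FPKM (exact permutation p = 0.743) and -0.719 without the M1 library (exact permutation p = 0.077). The relation did not pass the test, and whether the pieces were cut differently was not tested.

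**Figure D3:**
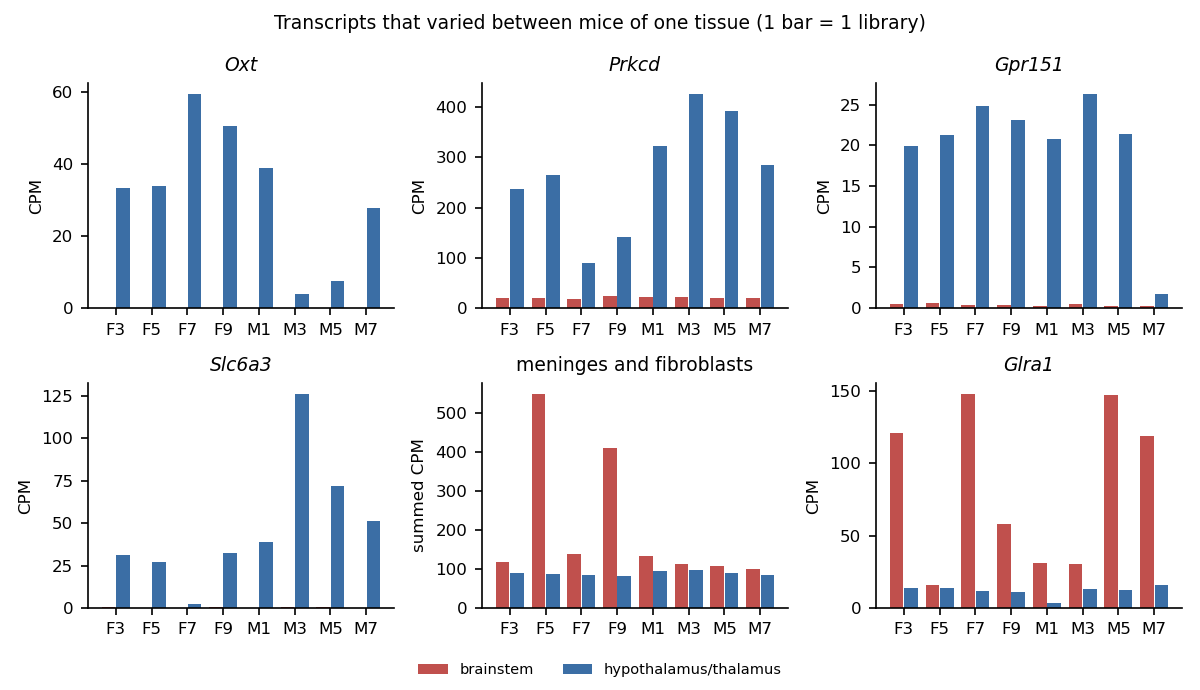
CPM of 5 genes, and the summed CPM of 14 meningeal and fibroblast genes, in both tissues (red, brainstem; blue, hypothalamus/thalamus) of each of the 8 wild-type mice, 1 bar per library. Oxt is low in M3 and M5, Prkcd and Slc6a3 in F7, and Gpr151 in M7, whereas the meningeal sum is high in the brainstems of F5 (551) and F9 (410) and Glra1 varies among brainstems.

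Genes expressed by most neurons were called in both directions. Of 15 tested, 6 were called higher in brainstem, none of them by 2-fold, and 4 in hypothalamus/thalamus, 2 by at least 2-fold, with a median log2 difference of 0.10, and 7 had no overlap between the groups. Snap25, a synaptic fusion protein, ranged from 2975 to 3677 CPM in brainstem and from 1324 to 2004 CPM in hypothalamus/thalamus (log2 difference 0.93 ± 0.07, adjusted p = 9.1e-07). Map2, a dendritic protein, did not pass the test (999.6 ± 149 against 1138 ± 160 CPM, adjusted p = 0.0555).

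Receptor and channel genes also differed. Of 31 GABA-A and glutamate receptor subunits tested, 22 were called higher in hypothalamus/thalamus, 10 by at least 2-fold, and 4 higher in brainstem, none of those by at least 2-fold. The median log2 difference was -0.57. Gabrd, the subunit of extrasynaptic GABA-A receptors, ranged from 1.59 to 2.72 CPM in brainstem and from 17.6 to 49.8 CPM in hypothalamus/thalamus (log2 difference -4.03 ± 0.17, adjusted p = 9.29e-09). Its usual partner Gabra4 ranged from 25 to 31.4 CPM against 91.0 to 185 CPM (log2 difference -2.24 ± 0.12, adjusted p = 6.83e-08). Grin1, the obligatory NMDA receptor subunit, did not pass the test (321 ± 28.2 against 303 ± 13.6 CPM, adjusted p = 0.231), although without F5 it did (log2 difference 0.13, adjusted p = 0.0172). Of 18 Kv1 to Kv4 potassium channel genes, 8 were called higher in brainstem and 9 in hypothalamus/thalamus. Kcna1, an axonal channel, averaged 635 ± 89.7 CPM in brainstem against 159 ± 47.7 CPM. Kcna4 and Kcnd3, which carry inactivating currents, were higher in hypothalamus/thalamus (12.8 ± 1.35 and 55.1 ± 7.66 CPM in brainstem against 26.8 ± 2.61 and 112 ± 12.4 CPM). A list of transmitter synthesis and transport genes, which also held Slc6a5, Tph2 and Hdc, had 4 of 12 members called higher in brainstem. Another 7 were called higher in hypothalamus/thalamus, including Gad2, a GABA-making enzyme (180 ± 36.4 against 407 ± 57.8 CPM, log2 difference -1.19 ± 0.07, adjusted p = 1.23e-07).

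Astrocyte genes split. Of 26 tested, 11 were called higher in brainstem and 8 in hypothalamus/thalamus, with a median log2 difference of 0.11. Gfap, the astrocyte intermediate filament, ranged from 643 to 1106 CPM in brainstem and from 134 to 159 CPM in hypothalamus/thalamus (log2 difference 2.53 ± 0.09, adjusted p = 3.46e-09). The glutamate transporter gene Slc1a3 was lower in brainstem (191 ± 10.4 against 576 ± 79.1 CPM, log2 difference -1.58 ± 0.06, adjusted p = 4.6e-09), while Slc1a2, the other astrocytic glutamate transporter, did not pass the test with all 8 mice (2024 ± 280 against 1795 ± 274 CPM, adjusted p = 0.123). Without F5 it passed, with a log2 difference of 0.25 (adjusted p = 0.0153). Of 20 microglial genes tested, 6 were called higher in brainstem, a share near that of all genes, and 1 in hypothalamus/thalamus, none by 2-fold. Csf1r and Cx3cr1 were not called (adjusted p = 0.708 and 0.307). The brainstem count was 3 by limma on either FPKM scale and without M3 and M7, and 2 in the 4 mice without a D in their library names. Endothelial and mural genes were called for 9 of 20 in brainstem and 2 in hypothalamus/thalamus, also none by 2-fold.

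Genes of neighbouring tissue were measured beside these. Meningeal and fibroblast genes were called higher in brainstem for 6 of 14, with summed CPM of 551 in F5 and 410 in F9 and between 101 and 138 in the other 6 brainstems, against 82.1 to 97.4 in hypothalamus/thalamus. Without F5 and F9 the count stayed at 6 for brainstem, and 3 members were called for hypothalamus/thalamus, whereas in the 4 mice without a D in their library names 2 were called for brainstem. Igf2, a meningeal growth factor, was at 149.5 and 123 CPM in those brainstems and between 18.3 and 37.1 CPM in the other 6. Ttr, the defining choroid plexus transcript, reached 111 CPM in brainstem F7 and 74.1 CPM in hypothalamus/thalamus M3, and did not pass the test (log2 difference -1.72 ± 0.77, adjusted p = 0.0781). Without F7 it was called higher in hypothalamus/thalamus (log2 difference -2.35, adjusted p = 0.000385). Of 11 pituitary genes, Gata2 alone passed the filter and Gh, Prl, Cga and Tshb did not. Of 20 tested cortical and hippocampal genes, 14 were called higher in hypothalamus/thalamus and 4 in brainstem, and Lamp5, a membrane protein of some cortical neurons, was one of the latter, at 234 to 320.5 CPM against 6.88 to 12.5 CPM (log2 difference 4.75 ± 0.12, adjusted p = 2.51e-10). Among the former, Camk2a, a kinase of forebrain excitatory neurons, ranged from 476 to 637 CPM against 124 to 211 CPM (log2 difference -1.74 ± 0.09, adjusted p = 3.4e-08), and Tbr1, a transcription factor of such neurons, from 4.13 to 6.95 CPM against 0.151 to 0.445 CPM. Cerebellar genes were called for 4 of 18 in brainstem and 11 in hypothalamus/thalamus, and striatal genes for 6 and 11 of 20. The summed CPM of striatal genes went the other way from their counts, with 1232 ± 42.6 in brainstem and 772 ± 25.9 in hypothalamus/thalamus. That of cerebellar genes was 657 ± 21.2 and 1107 ± 55.8. Immediate early genes, which reflect recent activity and handling, were called for 10 of 19 in hypothalamus/thalamus (5 without the replicate block) and 1 in brainstem, with no member free of overlap between the groups. Of 5 genes that were Y-linked or Xist, Xist alone was called, higher in hypothalamus/thalamus (adjusted p = 0.0483), and it lost the call under 16 of 20 other settings. The part of neighbouring tissue and of handling in the results was not tested.

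The levels in 3 other brain regions of wild-type mice (cerebellum, hippocampus and corpus callosum, 8 libraries each), given as FPKM, which is per length, place these genes in context without a test. Slc6a5 had 77.3 ± 16.4 FPKM in brainstem, 10.4 ± 1.47 in cerebellum and at most 0.267 in any library of the other 3 regions. Hoxb5 had 28.3 ± 3.44 FPKM in brainstem and at most 0.0901 elsewhere. Hcrt had 81.9 ± 17.1 FPKM in hypothalamus/thalamus and at most 0.240 elsewhere. Lamp5 was highest in brainstem (147 ± 16.5 FPKM), then in corpus callosum (19.1 ± 7.98) and hippocampus (16.8 ± 0.989), which overlapped, and lowest in hypothalamus/thalamus (5.45 ± 1.2) and cerebellum (4.45 ± 3.12), which also overlapped. Gfap followed another order, with 321.5 ± 65 FPKM in brainstem, 236 ± 34.8 in corpus callosum, 125 ± 10.6 in hippocampus and overlapping levels in cerebellum (56.8 ± 6.67) and hypothalamus/thalamus (56.1 ± 3.35). The highest and second of these regions overlapped too. Gabrd was highest in cerebellum (86.8 ± 5.34 FPKM) and lowest in brainstem (0.978 ± 0.177), with 17 ± 6.02 in hypothalamus/thalamus.

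**Figure D4:**
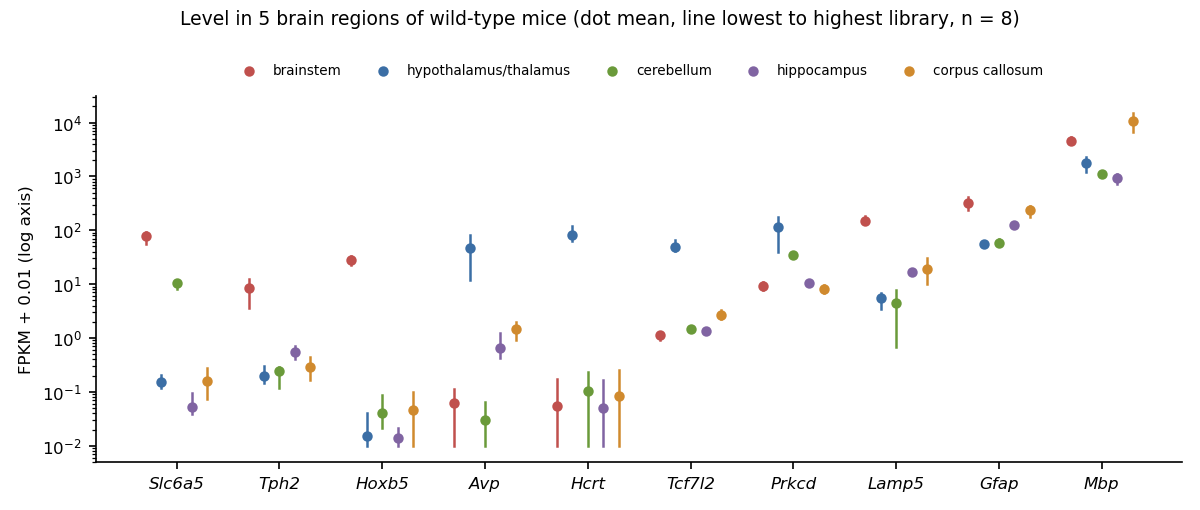
FPKM, plus 0.01 on a log axis, of 10 genes in 5 brain regions of wild-type mice, with the mean as a dot and a line from the lowest to the highest of 8 libraries. Slc6a5, Tph2 and Hoxb5 are highest in brainstem, Avp, Hcrt, Tcf7l2 and Prkcd in hypothalamus/thalamus, and Mbp is highest in corpus callosum.

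Summed over whole lists, as CPM on plain library totals, the levels were not highest in hypothalamus/thalamus throughout. Thalamic genes summed to 3686 ± 555 CPM there and 4031 ± 88.6 in cerebellum, tanycyte genes to 274.9 ± 25.9 there and 502 ± 16.4 in hippocampus, and hypothalamic transcription factors to 189.5 ± 32.95 there and 173 ± 4.88 in hippocampus. Neuropeptide genes summed to 992 ± 183 CPM in hypothalamus/thalamus and to between 118 and 435 CPM on average in the other 4 regions. Among the brainstem lists, hindbrain and midbrain transcription factors summed to 142 ± 6.49 CPM in brainstem and 205 ± 7.85 in cerebellum. Myelin genes summed to 22540 ± 2327 CPM in brainstem and 60240 ± 14500 in corpus callosum. Serotonergic, noradrenergic and dopamine neuron lists were highest in hypothalamus/thalamus, and the other brainstem lists in brainstem.

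The same contrast in Q175 mice called 10086 of 16760 genes (60.2%). Of the 9548 genes called in wild type, 7669 (80.3%) were called in Q175 in the same direction and 8 in the other. Of the 1632 called by at least 2-fold, 1541 (94.4%) were called in the same direction in Q175 and 0 in the other. Pearson's r of the log2 differences was 0.956 across 16583 genes, which are not independent replicates. Slc6a5, Tph2, Avp and Tcf7l2 had log2 differences of 9.58, 4.09, -9.29 and -4.83 in Q175. All 23 Hox genes, all 24 myelin genes and 21 of the 22 called hypothalamic transcription factors were called in the same direction in both genotypes. Agreement was lower for some lists, such as habenula genes (9 of 12 called), oligodendrocyte precursor genes (8 of 11) and general neuron genes (8 of 10). The difference between the tissues depended on genotype for 10 of 17315 genes (0.0578%) by edgeR's interaction test, with 3290 at an unadjusted p under 0.05, and none of the genes discussed here by role was among the 10. The count was 439 by DESeq2 and ran from 1 to 265 with 1 animal left out, the highest without F7. By the same test the tissue difference depended on sex for 0 of 16709 genes (0.00%), with 1394 at an unadjusted p under 0.05 and 2 called by DESeq2.

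**Figure D5:**
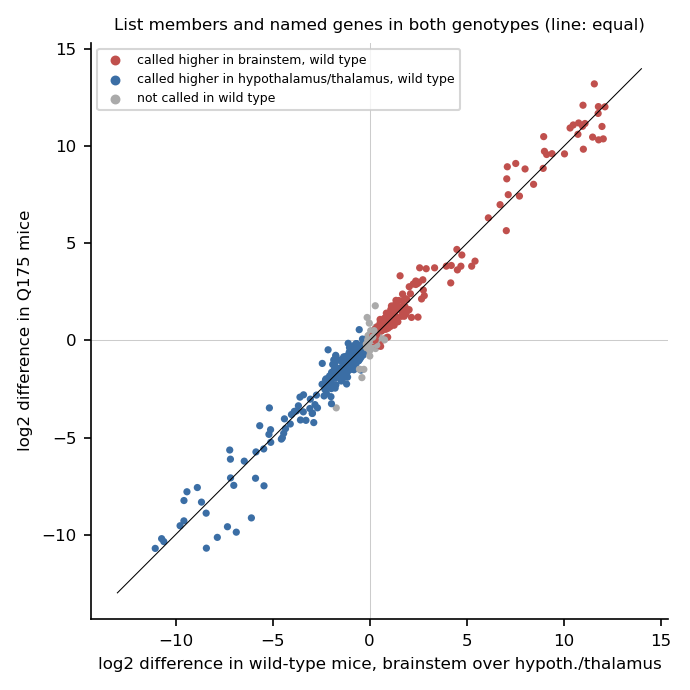
Log2 difference between brainstem and hypothalamus/thalamus in wild-type mice (x axis) and in Q175 mice (y axis) for 489 list members and named genes, coloured by their call in wild type. The line marks equal differences, and most points lie close to it, including the Hox genes at the upper right.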

How the data were processed

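The authors deposited estimated counts per Ensembl gene and, in a second table, FPKM values, scaled by gene length and library total per the file headers' unit name. The only tool that the submitters' processing notes name is CASAVA 1.8.2. Not given in the sources used here are the aligner, the build, the annotation and the strand setting. Of the 38561 entries, 36639 (95%) matched a symbol, and 17.8% of the estimated counts in the libraries used were not whole. Counts were rounded, scaled by TMM, filtered with filterByExpr and tested in edgeR 4.0.16 (R 4.3.3) with the animal as a block, with Benjamini-Hochberg adjustment and calls at an adjusted p under 0.05. CPM values are on the TMM scale with no pseudocount.

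Pairing rests on the animal code, not on the replicate numbers of the titles, which do not follow the animals. After removal of group means, libraries of the same animal correlated at 0.315 on average, those of other animals of the same sex at 0.106 and those of the other sex at -0.121 (10874 genes). The own pair was the highest in 5 of 8 animals, with -0.377 in F5 and 0.0515 in M3. Sex and genotype dependence were tested as interactions. DESeq2 1.42.0 and limma 3.58.1 on log2(FPKM + 1) or log2(FPKM + 0.1) were alternatives, as were the removal of a length trend and the leaving out of libraries. The scripts were tested on simulated data. Levels of single genes across 5 regions are the deposited FPKM, in place of the planned CPM, and list sums are CPM. Exact permutation tests used scipy 1.17.1, and figures used matplotlib 3.10.9.

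Named genes are 4 markers, the 15 with the largest fold in each direction (called by at least 2-fold, at least 5 CPM in the higher tissue, the same direction in 8 mice, an established name), and for each of 31 lists up to 5 called members with the smallest p and up to 2 members not called. The comparison, the lists and the rule were chosen with earlier results of these data known. Values of a few named genes are not reported here. Of 529 list symbols, 522 were in the table and 488 were tested. Sequences come from RefSeq on GRCm38.p6. Intervals and floors cover counting error only.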

Additional observations from a re-analysis of the deposited data

Results flagged for a closer look

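In groups of 8 libraries, 11 of 100 list sums and single genes checked had 1 library set apart from the other 7. The rule used has a nominal rate of about 1 in 20. The items share genes, some lie near 0, and Glra1 was chosen after its values were seen. The count therefore cannot be set against that rate and is a description. In hypothalamus/thalamus M7, the summed CPM of habenula genes was 103.9 against 265 to 329 in the others, and Gpr151 was 1.75 CPM against 19.9 to 26.3. The same library held the highest traces of Hoxb5 (0.0873 CPM, others 0.0283 at most) and Hoxb8 (0.175 CPM, others 0.0265 at most). Hypothalamus/thalamus M1, which has the low length slope, was lowest in oligodendrocyte precursor genes (summed CPM 676.9, others 799 to 854), in GABA-A and glutamate receptor subunits (3009, others 3408 to 3663) and in Glra1 (3.36 CPM, others 10.75 to 16.1), and highest in Pmch (589 CPM, others 341.5 to 447). Among brainstems, M3 was highest in habenula genes (summed CPM 149, others 99.5 to 119), and F7 in choroid plexus and ependymal genes (769, others 515 to 591) and in Hcrt (0.09996 CPM, others 0.0301 at most).

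The tissue difference differed between the genotypes for 10 genes by edgeR's interaction test, given as the Q175 minus the wild-type log2 difference. Hrh1, a histamine receptor, had -0.48 (adjusted p = 0.00579): it averaged 11.2 ± 1.02 CPM in brainstem and 19.6 ± 2.55 in hypothalamus/thalamus of wild-type mice, and 9.58 ± 0.53 and 23.4 ± 1.52 CPM in Q175 mice. It was called in all 16 fits that left out 1 animal each. The other 9 were positive, each called in 5 to 11 of those 16 fits: Elovl2 0.47, Itgax 2.01, Zfp488 0.49, Kcng4 1.35, 9330111N05Rik 1.14, Gfra1 0.57, Rab31 0.37, Serinc5 0.52 and Lrrc8d 0.27 (adjusted p = 0.0217 to 0.0299). The count of 10 was 439 by DESeq2 and ran from 1 to 265 with 1 animal left out.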

How the results depend on the processing

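Among 173 named genes, 3407 of 3460 values under 20 other settings kept their direction and their side of the threshold. Of the genes called, 7 lost the call under at least 1 of these settings (27 values), among them Xist, Aldh1a2, Col3a1, Dcn, Fmod and Olfml3, and none changed direction. Sst, Csf1r and Igf2, which were not called, changed direction. Sst had log2 differences of -0.001 without the replicate block, -0.093 with the length trend removed, -0.018 by limma on either FPKM scale, -0.183 in the 4 mice without a D in their library names, -0.021 without F5 and F9 and -0.105 without M3 and M7. With 1 mouse left out it ranged from -0.085 to 0.098. Csf1r had -0.023 and -0.024 by limma, and Igf2 -0.113 without F5 and F9. Without the replicate block, so with libraries not paired by animal, 4661 genes were called for brainstem and 4676 for hypothalamus/thalamus (686 and 951 by at least 2-fold), and 10109 in Q175. Leaving out 1 mouse gave 4346 to 4902 and 4280 to 5031 calls, and 652 to 722 and 909 to 1001 by at least 2-fold. On the log2(FPKM + 1) scale, which by construction understates low genes, Hoxb5 had 4.86, and limma gave 267 and 377 genes past 2-fold, and a test against a 2-fold difference (glmTreat) gave 420 and 595. The genotype interaction gave 439 genes in DESeq2 and 1 to 265 with 1 animal left out, the highest without F7. The sex interaction gave 2 in DESeq2 and 0 with any mouse left out. Of 744 counts of list members called, 44 moved by over 1.5 times. The causes were not tested. The share of calls that were higher in brainstem ran from 44.1% to 50.7% over all settings (49.9% as reported). Depth allows no statement below 3 counts.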
